A study of Mus musculus with 10 samples.

Results

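The genes of cholesterol and fatty acid synthesis are described here in mouse neuroblastomas with and without mutant ALK. They are 36 named genes: 8 of the mevalonate steps, 11 of the later sterol steps, 5 that control the SREBP transcription factors, 4 of sterol transport and efflux, and 8 of fatty acid and lipid synthesis. Each was found on the array by its gene name and read from 1 probe, the one with the highest mean intensity over all arrays, and all 36 were among the 22277 genes tested. All 36 probes were well above background on all 10 arrays.

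Tumours came from 10 transgenic mice and were untreated. The ALK/MYCN group held 5 tumours of mice labelled ALK+/-, MYCN+/-, which expressed MYCN together with ALK F1174L, a mutant form of a receptor tyrosine kinase, on a C57BL/6 x 129X1/SvJ background. The MYCN group held 5 tumours of mice labelled MYCN+/-, on a 129X1/SvJ background. Mutant ALK and the mouse background therefore differ together and cannot be told apart in any difference below. The promoters that drive the transgenes, and the age of the mice, are not given in the sources used here. Tumour RNA, in Cy3, shared its array with a reference RNA in Cy5 that combined 11 cell lines of the mouse. A level below is the log2 of tumour over reference, and a difference is the ALK/MYCN mean minus the MYCN mean on that scale.

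Cells build cholesterol from acetyl-CoA: the mevalonate steps yield isoprenoid units, which are joined to squalene, closed into a ring and trimmed through a series of sterol intermediates. The enzymes of this route are targets of SREBP2, a membrane-bound transcription factor that SCAP carries out of the endoplasmic reticulum when sterols are scarce and that the INSIG proteins retain there when sterols are plentiful, while SREBP1 acts more on fatty acid synthesis. When sterols accumulate, the nuclear receptor LXR induces the efflux pumps ABCA1 and ABCG1 and the ubiquitin ligase MYLIP, which removes lipoprotein receptors from the cell surface.

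Promoter sequence was available for 29 of the 36 genes, 15 of them among the 20 that were higher in ALK/MYCN tumours at an adjusted p under 0.05 (limma), as 14.2% of all genes tested were. Shown here, because the results turn on these genes, are 60-base windows from the promoters of the 8 such genes with the largest differences, each a stretch of the 250 bases before the start of transcription, placed to hold the sterol element where there was one and otherwise the most motif matches clear of its ends. They are from RefSeq, build GRCm38.p6, printed in the direction of transcription, and capitals mark matches on either strand to CCAAT, the box bound by NF-Y, and to TCACNCCAC, a form of the sterol regulatory element.
Hmgcs1 (chr13:119690168-119690227, plus strand): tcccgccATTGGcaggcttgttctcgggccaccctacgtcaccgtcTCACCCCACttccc
Sc4mol, now Msmo1 (chr8:64733622-64733681, minus strand): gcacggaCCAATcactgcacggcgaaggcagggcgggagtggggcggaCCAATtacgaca
Idi1 (chr13:8885546-8885605, plus strand): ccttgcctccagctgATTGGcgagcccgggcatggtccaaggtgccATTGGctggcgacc
Tm7sf2 (chr19:6067866-6067925, minus strand): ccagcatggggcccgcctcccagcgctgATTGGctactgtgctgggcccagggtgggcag
Mvk (chr5:114444183-114444242, plus strand): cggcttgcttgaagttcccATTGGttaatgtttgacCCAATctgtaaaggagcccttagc
Nsdhl (chrX:72918384-72918443, plus strand): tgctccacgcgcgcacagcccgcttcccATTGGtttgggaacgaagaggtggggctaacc
Mvd (chr8:122443434-122443493, minus strand): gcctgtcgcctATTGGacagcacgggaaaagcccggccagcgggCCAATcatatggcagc
Dhcr7 (chr7:143830119-143830178, plus strand): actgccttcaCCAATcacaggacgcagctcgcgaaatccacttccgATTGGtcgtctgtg

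CCAAT lay, on either strand of the 300-base promoters (250 bases before to 50 after the start), in 14 of the 15 higher genes with a promoter (93.3%), the exception being Acat2. It lay in 9 of the 14 other members with one (64.3%), in 41.1% of all 27025 genes with a promoter in the table, and in 44.8% of the genes that were tested here and higher. TCACNCCAC was found in Hmgcs1 alone among the 29, against 1.44% of all genes. The E-box CACGTG, which reads the same on both strands, lay in 2 of the 15, Sc5d and Dhcr7, and in 4 of the 14 others, against 8.09% of all genes. A gene with several promoters counts where any of them holds the letters. These are matches of letters, with no test and with no measurement of binding.

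Of the 36 genes, 20 were higher in ALK/MYCN tumours at an adjusted p of 0.05 (limma, Benjamini-Hochberg over all genes), 1 was lower and 15 did not pass. Over all genes tested 14.2% were higher and 12.2% lower, 26.5% in either direction. The median difference of the 36 was 0.61 and that of all genes -0.0037. The 5 ALK/MYCN tumours lay entirely apart from the 5 MYCN tumours in 19 of the 36 genes, with the ALK/MYCN tumours above in 18, against 19.9% of all genes in either direction and 11.3% with ALK/MYCN above. The rises lay mostly in the mevalonate and sterol genes: 17 of the 19 were higher, and over the 19 the median was 0.86 and the range 0.15 to 1.44. The 17 include Ggps1, whose product serves protein prenylation rather than sterols. Of the other 17 members 3 were higher, 1 was lower and 13 did not pass.

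**Figure D1:**
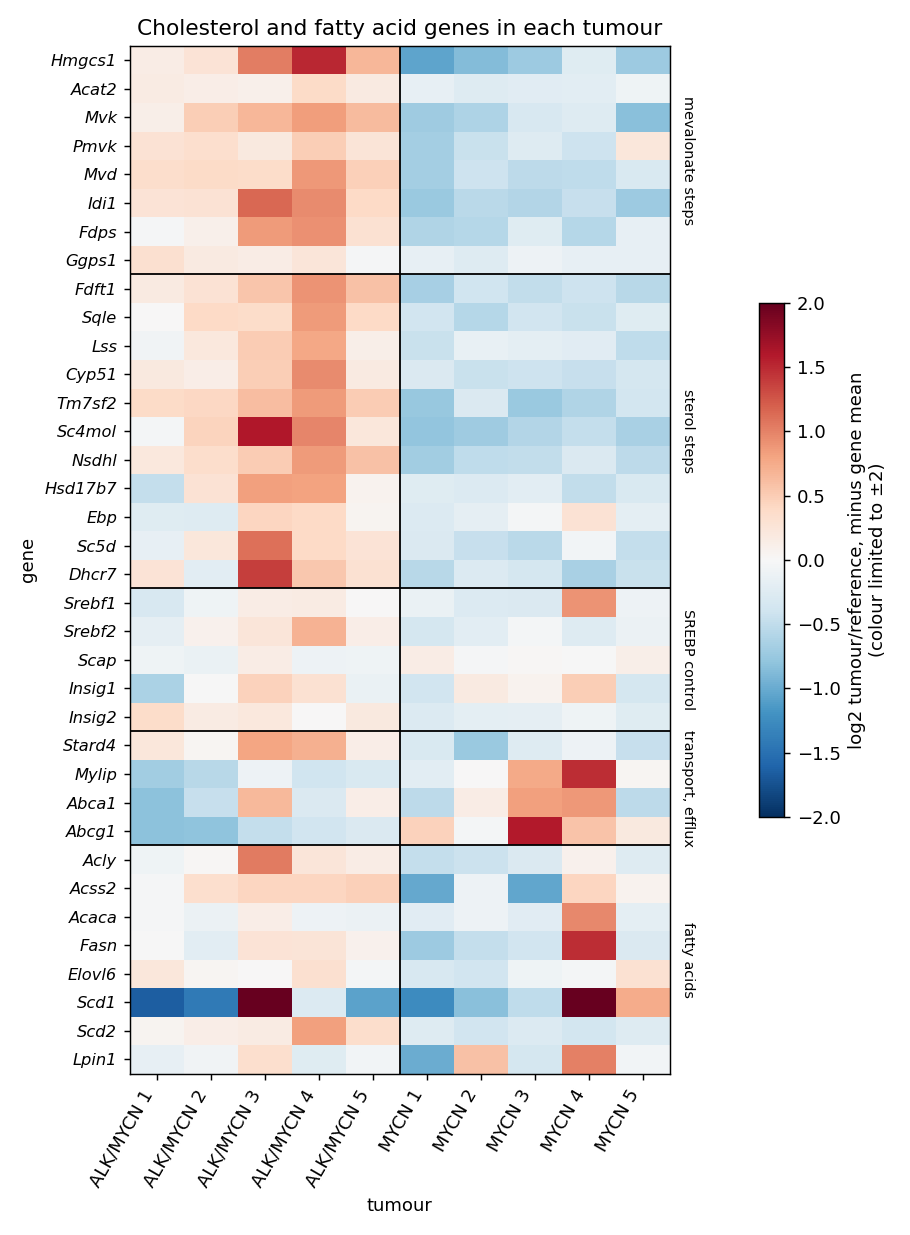
Levels of the 36 genes (rows, grouped by role) in each of the 10 tumours (columns), as log2 tumour over reference minus the mean of that gene over the 10 tumours, with colour limited to plus or minus 2. The mevalonate and sterol rows are mostly red in the 5 ALK/MYCN tumours and blue in the 5 MYCN tumours, and Insig2, Stard4, Scd2 and, inversely, Abcg1 separate the groups too. In Fasn and Acaca the single tumour MYCN 4 stands out, and in Scd1 an ALK/MYCN tumour stands out beside it.

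Before the single genes, the tumours themselves were compared. In the tumour channel, 53.8% to 58.7% of the spots were well above background, and the number of arrays limits the precision. All 13 neuroblast markers were measured, at least 12 of them above background in every tumour, with a mean level of 4.08 to 4.23 in the ALK/MYCN and 3.76 to 4.31 in the MYCN tumours. Markers of other tissues set 3 tumours apart, and the muscle list also separated the groups. ALK/MYCN 3 held all 10 adrenal cortex markers above background at a mean level of 4.24, against -0.25 to 0.12 in the other 9 tumours. The 11 adipocyte markers averaged 3.19 in ALK/MYCN 3 and -0.55 to 0.30 in the other ALK/MYCN tumours, and 4.51 in MYCN 4 and 0.89 to 2.43 in the other MYCN tumours. Their number above background was 11 in ALK/MYCN 3 and 6 to 8 in the rest of that group, against 10 or 11 in MYCN tumours. The 10 muscle markers averaged -0.90 to -0.70 in the ALK/MYCN tumours, with 4 to 6 above background, and -0.27 to 4.66 in the MYCN tumours, with 6 to 10 above background. The groups did not overlap, MYCN 2 was highest and MYCN 1 next at 1.70. The muscle myosin gene Myh8, above background on every array, differed by -2.61 (limma adjusted p = 0.00899). Myh4 differed by -2.60 (limma adjusted p = 0.00718) but was above background on only 3 ALK/MYCN arrays, against 5 MYCN arrays. Ckm differed by 0.98 (limma adjusted p = 0.00284) at the probe that passed the filter. Its marker level came from another probe, above background on 0 ALK/MYCN and 2 MYCN arrays. There it was 4.93 in MYCN 2 and at most 0.09 in ALK/MYCN tumours, so the direction of Ckm is uncertain. Acta1, Myh1, Tnnt3, Tnni2 and Des were lower on average but short of the threshold (limma adjusted p from 0.0544 to 0.197). Of these, Myh1 was above background on 0 ALK/MYCN and 5 MYCN arrays. It was thus tested only through the group where it was high, and the size of its difference was not measured. Tnnt3 was above background on 2 ALK/MYCN and 4 MYCN arrays. Myh2 and Mylpf had no test. Macrophage markers averaged 0.13 to 0.70 in the ALK/MYCN and 0.42 to 2.13 in the MYCN tumours, endothelial markers 0.40 to 1.37 and 1.31 to 2.25, fibroblast markers -3.07 to -1.08 and -3.23 to 1.14, hepatocyte markers 0.62 to 1.44 and 0.81 to 2.13, and Schwann cell markers 0.82 to 1.22 and 0.29 to 0.82. In whole tumours, fewer cells of a type and less RNA per cell cannot be told apart, and the part of these other cells in the differences below was not tested.

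**Figure D2:**
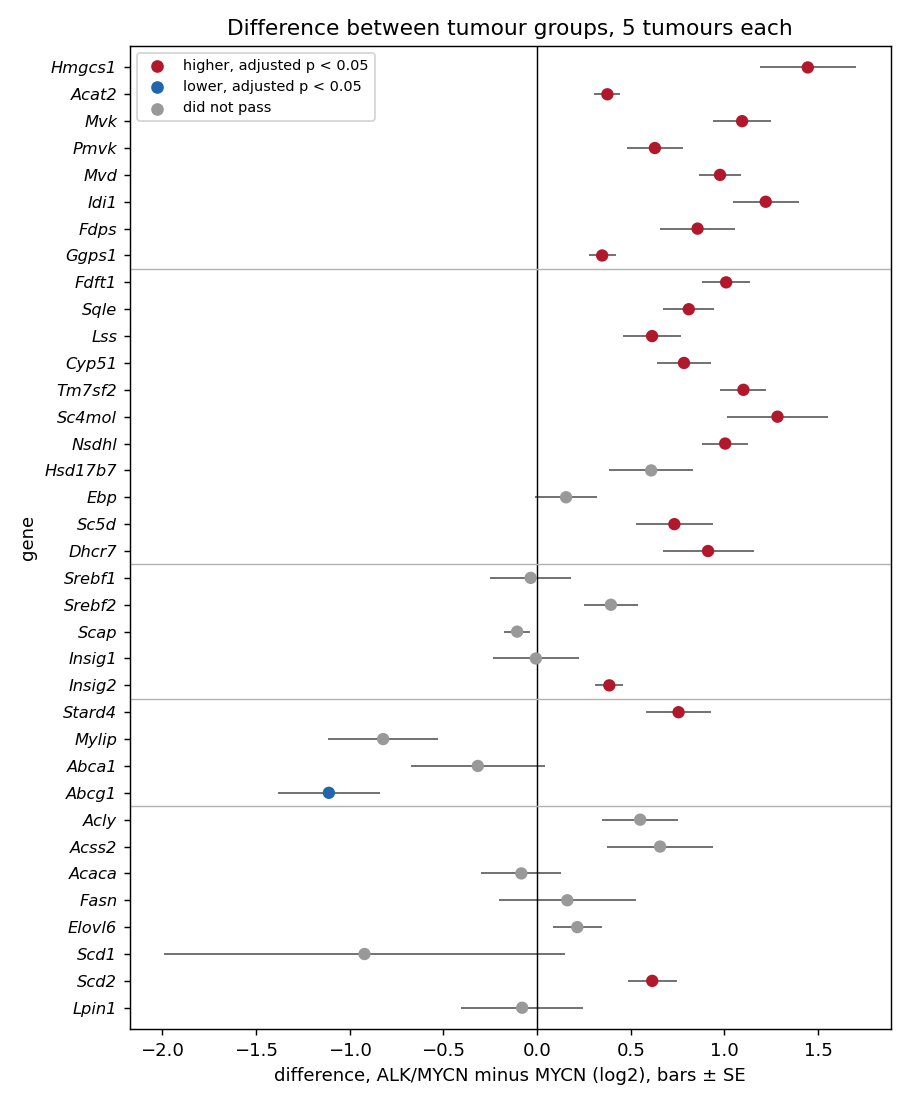
Difference of each of the 36 genes between 5 ALK/MYCN and 5 MYCN tumours (log2, points; bars are the standard error from limma), coloured by whether the adjusted p was under 0.05. The mevalonate and sterol genes, in the upper 2 blocks, all lie to the right of 0, while the lower blocks spread to both sides, from Abcg1 at -1.11 to Stard4 at 0.75.

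All 8 mevalonate genes rose in ALK/MYCN tumours, 7 of them with no overlap between the groups, and their median difference was 0.92. Hmgcs1, which encodes the synthase that makes HMG-CoA, rose most. Its levels were 0.74, 0.87, 1.62, 2.10 and 1.25 in ALK/MYCN 1 to 5 and -0.46, -0.27, -0.13, 0.35 and -0.13 in MYCN 1 to 5. ALK/MYCN 4 and ALK/MYCN 3 were the highest tumours, and the lowest ALK/MYCN tumour lay above the highest MYCN tumour, MYCN 4. The difference was 1.44 ± 0.26 (SE, n = 5 per group, limma adjusted p = 0.00370), a 2.72-fold rise. The probe maps to 114793 to 114852 of chromosome 13_random on build mm9, the build of the array's annotation for all probes here. Acat2 encodes the thiolase that joins acetyl-CoA units before that step, and it rose by a smaller 0.38 ± 0.07 (limma adjusted p = 0.00441), with levels of 0.50 to 0.79 in the ALK/MYCN and 0.15 to 0.33 in the MYCN tumours.

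The kinases and the decarboxylase that turn mevalonate into isopentenyl diphosphate followed. Mvk, the mevalonate kinase gene, was at -0.36, 0.02, 0.19, 0.37 and 0.17 in ALK/MYCN 1 to 5 and at -1.17, -1.09, -0.79, -0.72 and -1.31 in MYCN 1 to 5. The groups did not overlap, and the difference of 1.09 ± 0.15 (limma adjusted p = 0.00126) was matched by 1.12 at another probe of the gene. Pmvk, the phosphomevalonate kinase gene, was at 1.08, 1.12, 0.99, 1.28 and 1.05 in ALK/MYCN tumours and at 0.11, 0.34, 0.54, 0.38 and 1.02 in MYCN tumours. Here MYCN 5 reached into the ALK/MYCN range, and the other 4 MYCN tumours lay below it. Pmvk rose by 0.63 ± 0.15 (limma adjusted p = 0.0131). Mvd, which encodes the decarboxylase, was at 0.05, 0.08, 0.07, 0.58 and 0.18 in ALK/MYCN tumours and at -0.97, -0.71, -0.82, -0.80 and -0.61 in MYCN tumours. ALK/MYCN 4 stood above the others of its group, and the groups were far apart relative to their spread, with a difference of 0.98 ± 0.11 (limma adjusted p = 5.94e-04).

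Isoprenoid units are then isomerised and joined. Idi1, the isomerase gene, was at 0.55, 0.57, 1.43, 1.23 and 0.68 in ALK/MYCN 1 to 5 and at -0.46, -0.26, -0.31, -0.18 and -0.45 in MYCN 1 to 5. ALK/MYCN 3 and 4 again exceeded the rest, with no overlap of the groups and a difference of 1.22 ± 0.18 (limma adjusted p = 0.00139). Fdps, the farnesyl diphosphate synthase gene, was at 0.52, 0.65, 1.40, 1.47 and 0.85 in ALK/MYCN tumours and at -0.05, -0.02, 0.31, -0.02 and 0.39 in MYCN tumours. Its groups stood apart by 0.86 ± 0.20 (limma adjusted p = 0.0117). Ggps1, whose product makes the geranylgeranyl diphosphate used for protein prenylation rather than for sterols, rose by 0.35 ± 0.07 (limma adjusted p = 0.00705). Its levels were 0.85 to 1.18 in the ALK/MYCN and 0.60 to 0.76 in the MYCN tumours, and its other probes gave 0.61 and -0.13, so its size and direction differ between probes.

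Of the 11 genes from squalene to cholesterol, 9 rose, 8 of them with no overlap, and Hsd17b7 and Ebp did not pass; the median difference was 0.81. The first of them, Fdft1, encodes squalene synthase, which commits farnesyl diphosphate to sterols. It was at 0.49, 0.59, 0.86, 1.20 and 0.89 in ALK/MYCN 1 to 5 and at -0.36, -0.10, -0.19, -0.12 and -0.25 in MYCN 1 to 5. No MYCN tumour exceeded the reference and every ALK/MYCN tumour did. The difference was 1.01 ± 0.13 (limma adjusted p = 7.95e-04), although a dimmer probe of the gene, above background on 5 arrays, gave 0.05, and the mean over probes was 0.53. Sqle, the squalene epoxidase gene, was at 0.15, 0.55, 0.51, 1.00 and 0.54 in ALK/MYCN tumours and at -0.23, -0.43, -0.24, -0.30 and -0.11 in MYCN tumours. It too lay above the reference in ALK/MYCN tumours only, with a difference of 0.81 ± 0.14 (limma adjusted p = 0.00293).

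Lss encodes lanosterol synthase, which closes the ring. Its levels were -0.35, -0.07, 0.24, 0.50 and -0.16 in ALK/MYCN 1 to 5 and -0.72, -0.43, -0.46, -0.50 and -0.79 in MYCN 1 to 5. The groups came close at ALK/MYCN 1 and MYCN 2, and the difference of 0.61 ± 0.16 (limma adjusted p = 0.0174) was 0.55 with a slide term and 0.58 without ALK/MYCN 3 and MYCN 4 together, neither of which passed (adjusted p = 0.0678 and 0.0569). Cyp51, the lanosterol demethylase gene, was at 0.26, 0.20, 0.56, 1.01 and 0.25 in ALK/MYCN tumours and at -0.22, -0.38, -0.34, -0.40 and -0.30 in MYCN tumours. ALK/MYCN 4 was highest and the MYCN tumours were tightly grouped, with a difference of 0.78 ± 0.15 (limma adjusted p = 0.00462). Tm7sf2, which encodes a sterol reductase acting after that demethylation, was at 0.96, 0.99, 1.19, 1.43 and 1.09 in ALK/MYCN tumours and at -0.18, 0.29, -0.16, -0.02 and 0.22 in MYCN tumours. Of the 36 members it had the smallest adjusted p, with a difference of 1.10 ± 0.12 (limma adjusted p = 5.24e-04), and its other probe gave 0.89.

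Of the 3 genes of the next demethylation complex, Sc4mol and Nsdhl rose and Hsd17b7 did not pass. Sc4mol, the methylsterol monooxygenase gene now called Msmo1, was at -0.90, -0.42, 0.74, 0.11 and -0.63 in ALK/MYCN 1 to 5 and at -1.66, -1.57, -1.45, -1.33 and -1.51 in MYCN 1 to 5. It spread widely among the ALK/MYCN tumours and narrowly among the MYCN tumours, all of which lay below them, and the difference was 1.28 ± 0.27 (limma adjusted p = 0.00756), a 2.43-fold rise. Nsdhl, the sterol dehydrogenase gene, was at 0.01, 0.16, 0.31, 0.65 and 0.39 in ALK/MYCN tumours and at -0.90, -0.71, -0.69, -0.49 and -0.71 in MYCN tumours. Its groups did not overlap, and it rose by 1.00 ± 0.12 (limma adjusted p = 6.89e-04), or 0.38 at its other probe. Hsd17b7, which encodes the ketosteroid reductase of the complex, was at -0.10, 0.67, 1.20, 1.18 and 0.44 in ALK/MYCN tumours and at 0.13, 0.10, 0.16, -0.11 and 0.07 in MYCN tumours. ALK/MYCN 1 lay within the MYCN range and the other 4 above it, and the difference of 0.61 ± 0.23 did not pass (limma adjusted p = 0.0716). Without ALK/MYCN 1 it was 0.80 and passed (limma adjusted p = 0.0101), as did the mean over its probes (0.59, adjusted p = 0.0478).

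In the last steps, Sc5d and Dhcr7 rose and Ebp did not pass. Ebp, the sterol isomerase gene, differed by 0.15 ± 0.16 (limma adjusted p = 0.522), with levels of -0.93 to -0.24 in the ALK/MYCN and -0.94 to -0.39 in the MYCN tumours. Sc5d, the sterol desaturase gene, was at -0.63, -0.23, 0.64, -0.07 and -0.19 in ALK/MYCN 1 to 5 and at -0.76, -0.93, -1.00, -0.52 and -0.93 in MYCN 1 to 5. MYCN 4 lay above ALK/MYCN 1, and the rise of 0.73 ± 0.20 (limma adjusted p = 0.0255) no longer passed without ALK/MYCN 4, MYCN 2, MYCN 3 or MYCN 5 (differences of 0.73, 0.71, 0.69 and 0.71, adjusted p = 0.0505, 0.0510, 0.0571 and 0.0506), nor with a slide term (0.61, adjusted p = 0.104). Dhcr7, whose product makes cholesterol from dehydrocholesterol, was at 1.21, 0.73, 2.31, 1.47 and 1.24 in ALK/MYCN tumours and at 0.38, 0.66, 0.58, 0.29 and 0.50 in MYCN tumours. ALK/MYCN 2 lay just above the highest MYCN tumour and ALK/MYCN 3, the tumour with adrenal cortex markers, well above all others. The difference was 0.91 ± 0.24 (limma adjusted p = 0.0213), 0.68 without ALK/MYCN 3, and a slide term ended the call (0.85, adjusted p = 0.0531).

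**Figure D3:**
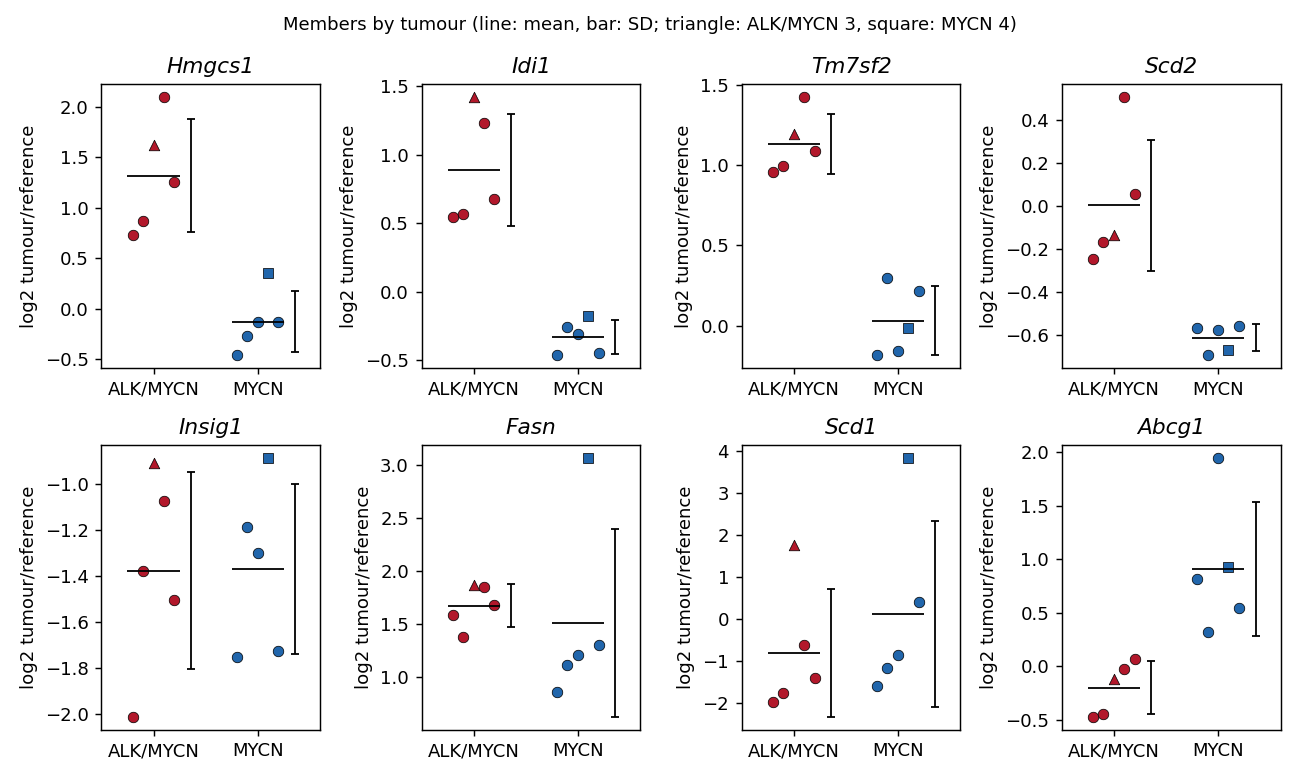
Levels (log2 tumour over reference) of 8 of the genes in each ALK/MYCN and MYCN tumour, with the mean (line) and SD (bar) of each group, n = 5; the triangle is ALK/MYCN 3 and the square MYCN 4. Hmgcs1, Idi1, Tm7sf2 and Scd2 separate the groups upward and Abcg1 downward, Insig1 overlaps fully, and in Fasn and Scd1 the square stands far above the other MYCN tumours.

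Within the ALK/MYCN group the 19 mevalonate and sterol genes were mostly highest in the same tumours. Centred on each gene's mean over the 10 tumours, they averaged 0.097, 0.24, 0.68, 0.76 and 0.33 in ALK/MYCN 1 to 5 and -0.54, -0.43, -0.39, -0.35 and -0.39 in MYCN 1 to 5. The MYCN tumours were close together and the ALK/MYCN tumours spread over a wider range, with ALK/MYCN 1 lowest among them. ALK/MYCN 4 had the highest level of the 10 tumours in 12 of the 19 genes, ALK/MYCN 3 in 6 and ALK/MYCN 1 in 1, Ggps1. Between 13 and 18 of the 19 lay above the reference RNA in an ALK/MYCN tumour and between 5 and 7 in a MYCN tumour. ALK/MYCN 4, the highest on average, had adrenal cortex markers at a mean level of -0.21, with 4 of 10 above background, and adipocyte markers at 0.30. Without ALK/MYCN 3 and MYCN 4 together, chosen after their markers were seen, 16 of the 19 were higher, against 10.9% of all genes. Their median was 0.74, and all 19 differences were above 0. With MYCN 2 left out as well, 12 of the 19 were higher, with a median of 0.72, against 8.79% of all genes. Fdps, Ggps1, Cyp51 and Pmvk were then among those that did not pass, with differences of 0.66, 0.33, 0.72 and 0.58 (limma adjusted p = 0.0964, 0.0619, 0.0521 and 0.0874).

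Slides, which the files name, each carried both groups. Slide 1 held 1 tumour of each, slide 2 carried MYCN 4 and 3 tumours of the ALK/MYCN group, and slide 3 carried 1 and 3. The median difference of the 19 genes was 0.78, 0.87 and 0.77 within slides 1, 2 and 3, and 19, 18 and 19 of them were above 0, the exception on slide 2 being Ebp at -0.09. For the 15 genes whose groups did not overlap these signs follow from that. With slide as a block 14 of the 19 were higher, against 11.1% of all genes.

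The genes that control SREBP mostly did not pass: Insig2 rose and the other 4 of 5 did not, with a median difference of -0.0062. Of all genes tested, 14.2% were higher and 12.2% lower. Srebf2, which encodes the SREBP of the sterol genes, was at -1.01 to -0.14 in the ALK/MYCN and -1.19 to -0.88 in the MYCN tumours. Its difference of 0.39 ± 0.14 did not pass (limma adjusted p = 0.0667); without ALK/MYCN 1 it was 0.49 (adjusted p = 0.0296), whereas its other probe gave -0.42 (adjusted p = 0.0315 over probes), so its direction is uncertain. Srebf1, the SREBP gene of fatty acid synthesis and of LXR response, differed by -0.03 ± 0.22 (limma adjusted p = 0.925), with MYCN 4 at 0.73 and the other 9 tumours between -0.48 and -0.0015. Scap, which encodes the escort protein, differed by -0.11 ± 0.07 (limma adjusted p = 0.300). Insig1, itself a known SREBP target, lay between -2.01 and -0.91 in ALK/MYCN and between -1.75 and -0.89 in MYCN tumours. Its difference was -0.01 ± 0.23 (limma adjusted p = 0.988), and the groups overlapped fully. Insig2, the retention protein gene that does not depend on SREBP in the same way, rose by 0.39 ± 0.07 (limma adjusted p = 0.00541), from -1.64 to -1.47 in MYCN to -1.37 to -1.00 in ALK/MYCN tumours, and by 0.35 at its other probe.

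Among the genes of sterol transport, the intracellular carrier rose and an efflux pump fell. Stard4 encodes a carrier that moves cholesterol between membranes and is a known SREBP target. It was at -0.65, -0.83, -0.09, -0.17 and -0.75 in ALK/MYCN 1 to 5 and at -1.19, -1.62, -1.14, -0.98 and -1.34 in MYCN 1 to 5. The groups did not overlap and the difference was 0.75 ± 0.17 (limma adjusted p = 0.0113), but another probe gave -0.05 and the mean over probes, 0.35, did not pass (adjusted p = 0.0625). Abcg1, the efflux pump gene, was at -0.47, -0.45, -0.12, -0.03 and 0.07 in ALK/MYCN tumours and at 0.82, 0.32, 1.94, 0.92 and 0.55 in MYCN tumours. Every MYCN tumour exceeded every ALK/MYCN tumour, and MYCN 3 was highest. Abcg1 was the only member that fell, with a difference of -1.11 ± 0.27 (limma adjusted p = 0.0146), or 2.16-fold higher in MYCN tumours, and a slide term ended the call (-1.07, adjusted p = 0.0560); within slides 1, 2 and 3 the difference was -1.26, -1.13 and -0.87.

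Mylip and Abca1, which LXR induces as it does Abcg1, did not pass, nor did Srebf1, given above with a difference of -0.03. Mylip was at -1.67 to -1.07 in the ALK/MYCN and -1.18 to 0.49 in the MYCN tumours, a difference of -0.82 ± 0.29 (limma adjusted p = 0.0640) that passed without MYCN 1 (-0.98, adjusted p = 0.0395) and with Cy3 alone (-0.74, adjusted p = 0.0431). Its highest tumours, MYCN 4 at 0.49 and MYCN 3 at -0.22, had the highest adipocyte marker means of the MYCN group, 4.51 and 2.43. ALK/MYCN 3, with an adipocyte mean of 3.19, had Mylip at -1.07, the highest of its group but below every MYCN tumour except MYCN 1. Abca1 was at -0.11 to 1.37 in the ALK/MYCN and 0.19 to 1.58 in the MYCN tumours, with ALK/MYCN 3 highest in its group and MYCN 4 in the other, and differed by -0.32 ± 0.36 (limma adjusted p = 0.548). Macrophages and adipocytes also express Abcg1, Mylip and Abca1, and both marker lists ran higher on average in MYCN tumours, as given above. The part of those cells in the 3 genes was not tested.

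Of the 8 genes of fatty acid and lipid synthesis 1 rose, none fell and 7 did not pass, and the median difference was 0.19. Over all genes tested 14.2% were higher and 12.2% lower. The gene that rose was Scd2, which encodes the stearoyl-CoA desaturase known for its expression in brain. It was at -0.25, -0.17, -0.14, 0.51 and 0.05 in ALK/MYCN 1 to 5 and at -0.57, -0.69, -0.58, -0.67 and -0.56 in MYCN 1 to 5. The MYCN tumours were within a narrow band below all ALK/MYCN tumours, and the difference was 0.61 ± 0.13 (limma adjusted p = 0.00848). With ALK/MYCN 3, MYCN 2 and MYCN 4 all left out it was 0.60 and did not pass (adjusted p = 0.0584). Scd1, the desaturase gene of liver and fat, was at -1.97, -1.74, 1.78, -0.61 and -1.40 in ALK/MYCN tumours and at -1.59, -1.16, -0.84, 3.85 and 0.41 in MYCN tumours. The 2 highest, MYCN 4 and ALK/MYCN 3, were those with the highest adipocyte marker means, and the difference of -0.92 ± 1.07 (limma adjusted p = 0.561) became 0.0083 without MYCN 4.

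Fasn, which encodes fatty acid synthase, was at 1.59, 1.38, 1.87, 1.85 and 1.68 in ALK/MYCN 1 to 5 and at 0.86, 1.11, 1.21, 3.07 and 1.30 in MYCN 1 to 5. Apart from MYCN 4, every MYCN tumour lay below every ALK/MYCN tumour. With all tumours the difference was 0.16 ± 0.36 (limma adjusted p = 0.778), and without MYCN 4 it was 0.55 and passed (limma adjusted p = 0.0163). Within slides it was 0.52, -1.30 and 0.47, slide 2 being the one with MYCN 4 as its only MYCN tumour. Acaca, the acetyl-CoA carboxylase gene that supplies fatty acid synthase, had the same outlying tumour: MYCN 4 was at 2.10, against 0.91 to 1.04 in the other MYCN and 1.03 to 1.27 in the ALK/MYCN tumours. Its difference was -0.08 ± 0.21 (limma adjusted p = 0.805), and 0.14 without MYCN 4 (adjusted p = 0.183). MYCN 4 also had the highest adipocyte, macrophage, endothelial and fibroblast marker means of the 10 tumours, and the part of those cells in these levels was not tested.

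**Figure D4:**
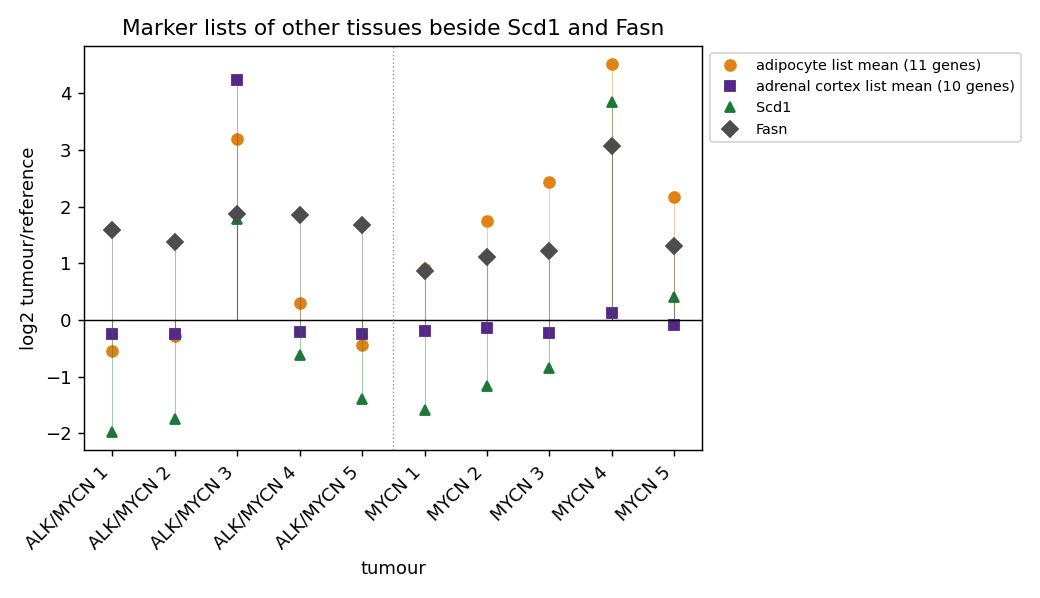
Mean level of the 11 adipocyte and the 10 adrenal cortex markers beside the levels of Scd1 and Fasn in each tumour (all as log2 tumour over reference). Scd1 is highest where the adipocyte mean is highest, in MYCN 4 (3.85 beside 4.51) and ALK/MYCN 3 (1.78 beside 3.19), and Fasn is highest in MYCN 4; the adrenal cortex mean stands out in ALK/MYCN 3 alone.

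The genes that supply acetyl-CoA were higher on average in ALK/MYCN tumours but did not pass. Acly, which encodes ATP citrate lyase, was at 1.12 to 2.24 in ALK/MYCN, highest in ALK/MYCN 3, and at 0.73 to 1.29 in MYCN tumours, highest in MYCN 4. Its difference was 0.55 ± 0.20 (limma adjusted p = 0.0689), 0.36 without ALK/MYCN 3 (adjusted p = 0.0626), and 0.45 without ALK/MYCN 3 and MYCN 4 together, where it passed (adjusted p = 0.0165), but its other probe gave -0.02. Acss2, the acetyl-CoA synthetase gene, differed by 0.66 ± 0.28 (limma adjusted p = 0.112), with MYCN 1 and MYCN 3 lowest at -1.03 and -1.06, and by 0.85 without MYCN 4 (adjusted p = 0.0403). Elovl6, a fatty acid elongase gene, differed by 0.21 ± 0.13 and Lpin1, a phosphatidate phosphatase gene, by -0.08 ± 0.33 (limma adjusted p = 0.256 and 0.882).

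Of 16 genes of the isoprenoid branch, which use farnesyl and geranylgeranyl diphosphate for dolichol, ubiquinone and prenylation, 2 rose and 1 fell, with a median of 0.0035. For this list and those that follow, the shares over all genes tested were 14.2% higher and 12.2% lower. Nus1, a subunit of the enzyme that starts dolichol synthesis, fell by 0.75 ± 0.09 (limma adjusted p = 7.86e-04), while the prenyltransferase subunit gene Rabggta and the prelamin protease gene Zmpste24 rose by 0.46 ± 0.08 and 0.24 ± 0.05. Of 13 measured genes of SREBP processing and turnover, out of 14 listed, 4 rose and 1 fell, with a median of 0.13. The coat protein gene Sec23a, of the vesicles that leave the endoplasmic reticulum, rose by 0.70 ± 0.10, Rnf145, a ubiquitin ligase gene, by 0.61 ± 0.09 and the membrane haem-binding protein gene Pgrmc1 by 0.61 ± 0.10 (limma adjusted p = 0.00138, 0.00165 and 0.00275). Mbtps1, which encodes the protease that makes the first cut in SREBP, fell by 0.26 ± 0.06 (limma adjusted p = 0.0107).

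Of 22 genes of LXR and sterol handling, 4 rose and 2 fell, against 14.2% and 12.2% of all genes, with a median of -0.064. Nr1h3, which encodes the LXR form of macrophages, liver and fat, fell by 1.58 ± 0.36 (limma adjusted p = 0.0113), with MYCN 4 highest at 3.08 and ALK/MYCN 3 highest of its group at 1.17, just above MYCN 2 at 1.12. The other of the 2, Ch25h, whose product makes an oxysterol, was above background on 5 of 5 MYCN arrays but on 1 of 5 ALK/MYCN arrays, so it was tested only through the group where it was high and the size of its difference was not measured. The sterol transfer genes Gramd1c and Osbp rose by 0.68 ± 0.14 and 0.23 ± 0.06 (limma adjusted p = 0.00795 and 0.0174). Of 25 measured genes, out of 26 listed, of other steps of fatty acid and glycerolipid synthesis, from the supply of NADPH and citrate to elongation, desaturation, activation and esterification, 4 rose and 1 fell, with a median of 0.082. Acsl4, which activates polyunsaturated fatty acids, rose most, by 1.39 ± 0.20 (limma adjusted p = 0.00134) with no overlap of the groups. The elongase gene Elovl5 rose by 0.78 ± 0.17 and the desaturase gene Fads1 by 0.55 ± 0.14. Idh1, whose product makes NADPH in the cytosol, rose by 0.74 ± 0.23 (limma adjusted p = 0.0392), whereas Mecr, of mitochondrial fatty acid synthesis, fell by 0.28 ± 0.08. Of 20 genes of fatty acid oxidation, limma called 0 at an adjusted p of 0.05 and 2 at an unadjusted p of 0.05 (10.0%), 1 in each direction, with a median of -0.17. At that unadjusted p limma called 39.0% of all genes tested, and 7 of 16, 7 of 13, 7 of 22 and 10 of 25 in the isoprenoid, SREBP processing, LXR and other fatty acid lists.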

How the data were processed

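The deposited spot intensities are output of Agilent Feature Extraction (version 10.7.3.1, per the file headers), and the array annotation gives positions on mm9. The deposited value table holds log2 ratios and equalled the ratio of the scanner's processed signals, Cy3 over Cy5, within 5.01e-04; it was used as an alternative only. Each array held 62976 spots, 59305 of them of 55681 probes.

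Mean signals were corrected for local background with normexp (offset 50) and loess-normalised within arrays with limma 3.58.1 in R 4.3.3, giving control spots no weight. The sign was set so that tumour over reference is positive where tumour is brighter. Spots flagged as outliers, 177 to 345 an array, were left out; none was saturated. A probe was kept if 5 or more of the 10 arrays had it well above background in Cy3, with 1 per gene. Groups were compared with lmFit and eBayes, two-sided, adjusted by Benjamini-Hochberg over 22277 genes at 0.05; the procedure was tested on simulated data. Arrays correlated at 0.915 to 0.973 within ALK/MYCN, 0.867 to 0.937 within MYCN and 0.805 to 0.910 between groups.

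The 36 genes, the other gene lists and the markers were chosen with earlier results of these data known, so no list was tested. Levels of every tumour are given for members past the threshold with a difference of at least 0.5, and also for Hsd17b7, Scd1 and Fasn. Of the other lists up to 4 genes with the smallest p are named, and Idh1 besides. Alternatives were other corrections, normalisations, filters, probe summaries, blocks and the removal of tumours.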

Additional observations from a re-analysis of the deposited data

Results flagged for a closer look

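In 7 of the 72 sets of 5 values (36 genes in each group), 1 tumour lay far from the other 4 by Dixon's test; chance flags about 1 in 20. MYCN 4 was the outlying tumour in Fasn, at 3.07 against 0.86 to 1.30 in the other MYCN tumours, in Acaca, at 2.10 against 0.91 to 1.04, and in Srebf1, at 0.73 against -0.46 to -0.27. It had the highest adipocyte marker mean of the 10 tumours, 4.51, and the part of those cells in the 3 levels was not tested. ALK/MYCN 4 was outlying in Acat2, at 0.79 against 0.50 to 0.58, and in Mvd, at 0.58 against 0.052 to 0.18. ALK/MYCN 3 was outlying in Scap, at 0.62 against 0.33 to 0.38, and ALK/MYCN 1 in Acss2, at -0.045 against 0.32 to 0.47.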

How the results depend on the processing

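Over 27 alternatives the number of members higher in ALK/MYCN tumours was 15 to 25 against 20. The share of all genes that were higher ran from 7.9% with no filter to 40% with spike-in centring. All 19 mevalonate and sterol differences stayed above 0. The other filters, the other eBayes settings and the replicate block left their median at 0.86. None of these settings changes a member's difference as long as its probe is kept, so the unchanged median says nothing on stability. Leaving tumours out cannot turn the sign of the 15 whose groups did not overlap. Removing 1 tumour at a time gave 19 to 22 higher and 1 to 2 lower. Of all genes 10.6% to 13.2% were then higher and 7.95% to 11.7% lower. Lower members numbered 2 with Cy3 alone, 2 without MYCN 1 and 0 with slide as a block. The shares of all genes that were lower were 10.5%, 11.7% and 8.43% in these settings. Spike-in centring moved the median of all genes to 0.25, with 40% higher and 3.79% lower, and gave 25 members higher and 1 lower. The replicate numbers did not pair the tumours (correlations of deviations 0.34, -0.020, -0.081, -0.091 and -0.061). With the replicate block 19 members were higher and 1 lower, against 11.3% and 9.41% of all genes.

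Signs that turned belonged to members that did not pass, and the cause was not tested. With spike-in centring Acaca was at 0.17, Insig1 at 0.25, Lpin1 at 0.17, Scap at 0.15 and Srebf1 at 0.22. With Cy3 alone Insig1 was at 0.11 and Srebf1 at 0.17, in the deposited values at 0.083 and 0.17, and Insig1 at 0.077 after scaling. Without ALK/MYCN 3 and MYCN 4 together Acaca was at 0.10, Lpin1 at 0.069 and Srebf1 at 0.15, and without MYCN 2 too Acaca at 0.13, Insig1 at 0.099, Lpin1 at 0.33 and Srebf1 at 0.12. Fasn was at -0.18 with slide as a block and Srebf2 at -0.015 as the mean over probes. Removing 1 tumour gave -0.15 to 0.14 for Acaca, -0.00053 to 0.55 for Fasn, -0.12 to 0.15 for Insig1, -0.34 to 0.16 for Lpin1, -1.56 to 0.0083 for Scd1 and -0.11 to 0.19 for Srebf1.

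The 5 arrays per group limit the size of difference that can pass.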
